A study of Mus musculus with 2 samples.

Results

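The genes described here are 38 genes of mitosis and the G2 phase of the cell cycle, followed in Sc-RNA-Seq counts of bone marrow cells (BMCs) from 1 WT and 1 Cko mouse. The list was given by name and is not defined by a measured value, though it was drawn up with earlier results of these data known. All 38 genes were listed in the WT counts and 37 in the Cko counts, of 7181 and 6735 genes listed in all, and the missing one was *Bub1*. The 37 genes listed in both libraries, of 6001 such genes, were summed as a share of the unique molecular identifiers (UMIs) of the cells, which count captured RNA molecules.

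Both mice were C57BL6/J and 21 days old after birth, and the BMCs came from hindlimbs and forelimbs with the red blood cells lysed. The labels give the control only as WT, and the study's text names its WT mice as S1P f/f. In the Cko mouse (S1P f/f;Osx-Cre) the *Mbtps1* gene, which codes for site-1 protease (S1P), was floxed at an exon and removed by the Osx1-GFP::Cre transgene, which is driven by the osterix promoter of the bone-forming lineage. Which BMCs had carried the active transgene was not determined here.

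In a dividing cell, cyclin B with Cdk1 starts mitosis, the mitotic kinases and motor proteins build the spindle on the centromeres, and the anaphase-promoting complex then marks cyclin B for destruction so that the cell can divide. RNAs of these genes are made late in the cycle and removed afterwards, so that their level in bone marrow marks the proliferating precursors, such as erythroblasts, pre-B cells and myelocytes. Mature neutrophils and reticulocytes have left the cycle. The promoters of many of these genes hold a short element called CHR, for cell cycle genes homology region, at which the DREAM complex represses them in resting cells, and CCAAT boxes, at which the factor NF-Y binds.

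Each genotype had a single library, so differences between the genotypes carry no replicate error and were not tested. The 95% intervals are exact (Poisson for UMI sums, binomial for shares of cells, conditional for Cko/WT ratios) and describe counting error alone. The 6271 WT cells held a median of 6977 UMIs and the 3662 Cko cells a median of 7440, and the libraries shared 28 barcodes. Doublet calls covered 2.03% of the WT against 1.39% of the Cko cells. *Mbtps1* gave 1798 UMIs in the WT against 1073 in the Cko, but reads from the 3′ end of the transcript lie outside the floxed exon and check nothing. Clustering of the pooled cells with the cell cycle genes left out gave 18 clusters, and 13 of them held at least 50 cells in each library. A cluster is called a class here, named "-like" from its marker genes and told apart by its leading genes. Hemoglobin RNA held 0.644% of the UMIs in WT mature neutrophil-like cells and 0.136% in the Cko ones, and 0.725% and 0.751% in stem or progenitor-like cells, although these cells should lack it.

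The promoters are shown first because the members share letters there that the choice of the list did not use. Promoter windows of 300 bases, from 250 bases before the start to 50 bases after it, were taken from RefSeq on GRCm38.p6, and 34 of the 38 members matched, with 36 windows. The CHR was searched as TTTGAA or TTCGAA and the NF-Y box as CCAAT, each on both strands. The 5 windows below belong to the members with the most UMIs after the 6 broadly transcribed ones were set aside, and capitals mark these letters. *Ube2c* was at chr2:164769679-164769978 (plus strand), *Cks2* at chr13:51644982-51645281 (plus), *Birc5* at chr11:117848987-117849286 (plus), *Cenpa* at chr5:30666636-30666935 (plus) and *Top2a* at chr11:99024140-99024439 (minus), and each is written 5′ to 3′ on the strand of its gene.
Ube2c: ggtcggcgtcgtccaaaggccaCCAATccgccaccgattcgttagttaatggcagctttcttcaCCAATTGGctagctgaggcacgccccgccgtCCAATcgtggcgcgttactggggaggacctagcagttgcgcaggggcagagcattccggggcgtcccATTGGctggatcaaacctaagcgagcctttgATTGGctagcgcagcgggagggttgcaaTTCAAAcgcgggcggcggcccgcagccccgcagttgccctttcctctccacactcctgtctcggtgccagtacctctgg
Cks2: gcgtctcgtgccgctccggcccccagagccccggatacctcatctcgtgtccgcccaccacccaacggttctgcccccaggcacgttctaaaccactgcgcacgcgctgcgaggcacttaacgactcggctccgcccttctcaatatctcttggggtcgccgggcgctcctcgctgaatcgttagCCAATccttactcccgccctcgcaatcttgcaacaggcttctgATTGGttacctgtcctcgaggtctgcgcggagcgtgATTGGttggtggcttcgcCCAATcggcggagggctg
Birc5: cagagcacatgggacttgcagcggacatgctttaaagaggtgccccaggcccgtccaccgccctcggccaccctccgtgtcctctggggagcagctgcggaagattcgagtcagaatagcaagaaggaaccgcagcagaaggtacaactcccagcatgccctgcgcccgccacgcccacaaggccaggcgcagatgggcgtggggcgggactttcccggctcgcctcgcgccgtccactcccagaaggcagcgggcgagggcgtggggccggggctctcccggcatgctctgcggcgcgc
Cenpa: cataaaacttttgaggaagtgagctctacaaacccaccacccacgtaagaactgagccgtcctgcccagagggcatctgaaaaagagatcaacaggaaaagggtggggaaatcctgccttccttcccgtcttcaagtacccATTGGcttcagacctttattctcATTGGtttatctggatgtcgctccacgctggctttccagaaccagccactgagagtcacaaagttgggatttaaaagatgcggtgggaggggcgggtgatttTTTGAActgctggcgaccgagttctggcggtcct
Top2a: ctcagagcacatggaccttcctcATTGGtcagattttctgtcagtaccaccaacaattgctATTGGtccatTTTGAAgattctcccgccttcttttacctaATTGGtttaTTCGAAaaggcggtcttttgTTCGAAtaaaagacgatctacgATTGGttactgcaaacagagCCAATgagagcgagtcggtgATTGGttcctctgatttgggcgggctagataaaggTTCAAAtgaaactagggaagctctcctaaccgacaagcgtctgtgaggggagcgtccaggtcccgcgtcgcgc

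The *Ube2c* window held 1 CHR match, which began 29 bases before the start, and 6 CCAAT matches. *Top2a* held 4 CHR and 6 CCAAT matches and *Cenpa* 1 CHR and 2 CCAAT matches. *Cks2* held 4 CCAAT matches and no CHR match, and *Birc5* held neither, which says only that these letters are not in that window. Of the 36 windows of the members, 29 held a CHR match (80.6%), against 19.2% of all 32851 windows. CCAAT was in 30 of the 36 windows (83.3%) and in 37.4% of all windows, and both kinds of letters were in 26 (72.2%) and in 7.52%. The CHR matches of the members had a median position of -21 from the start, and those of all windows a median of -125. In 33 windows of the S phase list, which holds genes of DNA replication, the CHR share was 18.2%, near that of all windows, and the CCAAT share was 60.6%. In 48 windows of other mitosis genes the CHR share was 66.7%. These are counts of letters and not of bound sites. A CHR and a CCAAT match overlapped in 1 window of the members.

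**Figure D1:**
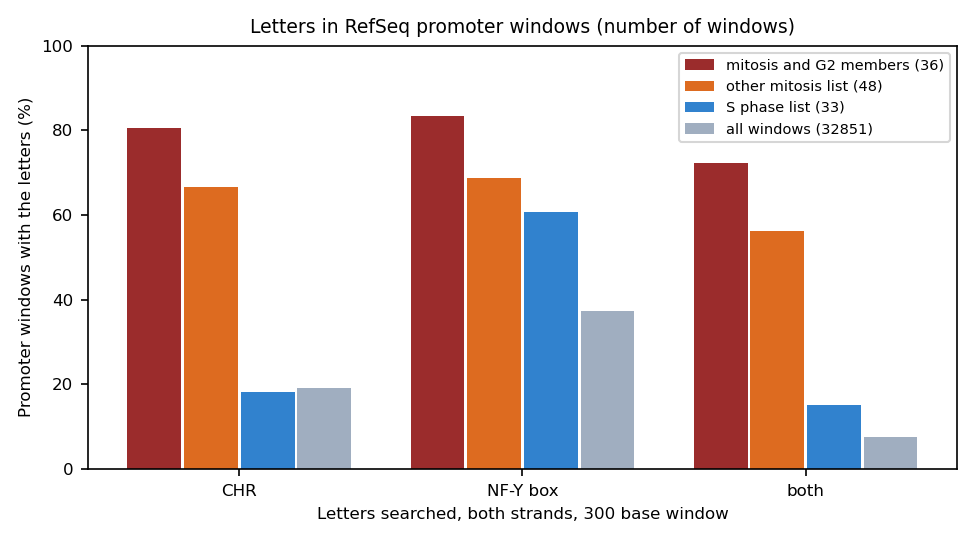
Bars give the percentage of 300 base RefSeq promoter windows that hold the CHR letters, the NF-Y box letters or both, for the mitosis and G2 members (36 windows), other mitosis genes (48), S phase genes (33) and all windows (32851). The CHR share is 80.6% for the members and 18.2% for the S phase genes, beside 19.2% for all windows.

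The sum of the members was carried by a few abundant RNAs. *Hmgb2*, a chromatin protein that is also present outside mitosis, held 21.7% of the member UMIs in the WT against 32.6% in the Cko. *Ube2c*, the ubiquitin-conjugating enzyme of the anaphase-promoting complex, followed with 8.41% and 6.89%. *Cks2*, a small subunit of the cyclin-dependent kinases, held 6.47% and 5.75%, and *Tubb4b*, a beta-tubulin of the spindle, 6.48% and 4.27%. *Anln* and *Ckap2* were the rarest, with 1332 and 1844 UMIs in the WT. Because *Hmgb2*, *Tubb4b*, *Tmpo*, *Cks1b*, *Bub3* and *Smc4* are also transcribed in cells that do not divide, the sum of the other 31 members is given beside the full sum.

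The same pair of classes was the highest in both libraries. In the WT the members held 2.04% of the UMIs in the late erythroid-like class led by *Gch1* and *Hist3h2ba* (interval 2.03 to 2.06) and 1.98% (1.96 to 1.99) in the early B-like class led by *Myl4* and *Fcrla*. The same classes were the highest in the Cko, at 1.94% (1.91 to 1.96) and 1.95% (1.93 to 1.96). Of all UMIs their order thus turned between the libraries, and in the Cko their intervals overlapped. Hemoglobin was 65.5% of the WT and 60.6% of the Cko UMIs in the *Gch1*-led class. Of the other UMIs this class was higher in both libraries, at 5.92% in the WT and 4.91% in the Cko. The *Myl4*-led class held 1.99% and 1.95% of them. The lowest in the WT were the mature neutrophil-like class led by *Mmp8* and *Retnlg*, at 0.414% in the WT against 0.371% in the Cko, and the late erythroid-like class led by *Bpgm* and *Tmcc2*, at 0.162% and 0.0708%. In the Cko the unnamed class led by *H2-Aa*, at 0.338% (0.329 to 0.347), was also below the mature neutrophil-like class. Mature neutrophils and the latest erythroid cells no longer divide, so these classes serve as the background. Hemoglobin was 83.3% of the UMIs in the WT *Bpgm*-led class. Of the other UMIs the members held 0.970% there, against 0.417% in WT mature neutrophil-like cells. That was above WT stem or progenitor-like (0.731%), granulocyte progenitor-like (0.823%), *Mt2*-led early erythroid-like (0.953%) and *H2-Aa*-led cells (0.967%). As a share, the *Bpgm*-led class was thus lowest in the WT only with hemoglobin in the total.

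Between these ends lay the precursors. The early erythroid-like class led by *Acp5* and *Mgst3* held 1.58% in the WT against 1.41% in the Cko. Monocyte-like cells led by *Fn1* and *S100a4* held 1.31% and 1.38%, and immature neutrophil-like cells led by *Chil3* and *Ngp* 1.21% and 1.33%. The early B-like class led by *Vpreb1* and *Igll1*, which carries the surrogate light chain of pro-B cells, held 1.21% and 1.08%. The early erythroid-like class led by *Mt2* and *Fam132a* held 0.941% and 0.766%, granulocyte progenitor-like cells led by *Elane* and *Nkg7* 0.813% and 0.756%, and stem or progenitor-like cells led by *Ctla2a* and *Gng11* 0.726% and 0.673%. The stem or progenitor-like cells thus held a smaller share than the erythroid, B-lineage and myeloid precursors. Their cells were also deeper, and the gap was smaller in UMIs per cell, with 88.9 member UMIs in a WT stem or progenitor-like cell and 109 in a WT *Myl4*-led early B-like cell. Among cells of a class the spread was wide. In the WT *Myl4*-led class the middle 50% of cells ran from 1.18% to 2.91% of their UMIs, and in the WT stem or progenitor-like class from 0.331% to 0.978%.

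The small classes, with under 50 cells in a library, are given for their levels only. T or NK-like cells held 1.07% in 18 WT cells and 0.680% in 62 Cko cells, macrophage-like cells 0.875% in 50 and 0.474% in 9, and basophil or mast-like cells 1.15% in 17 and 0.725% in 22. Stromal or endothelial-like cells led by *Col1a2* and *Col1a1*, the collagen genes of bone-forming cells, held 0.133% in 29 WT cells and 0.0956% in 18 Cko cells, below the mature neutrophil-like class in both libraries. The stromal or endothelial-like share was also below that of the *Bpgm*-led class in the WT (0.162%) and above it in the Cko (0.0708%). An unnamed class led by *Retnlg* and *Ly6d*, whose leading genes mix neutrophil and B genes, held 1.22% in 48 and 0.746% in 34 cells.

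**Figure D2:**
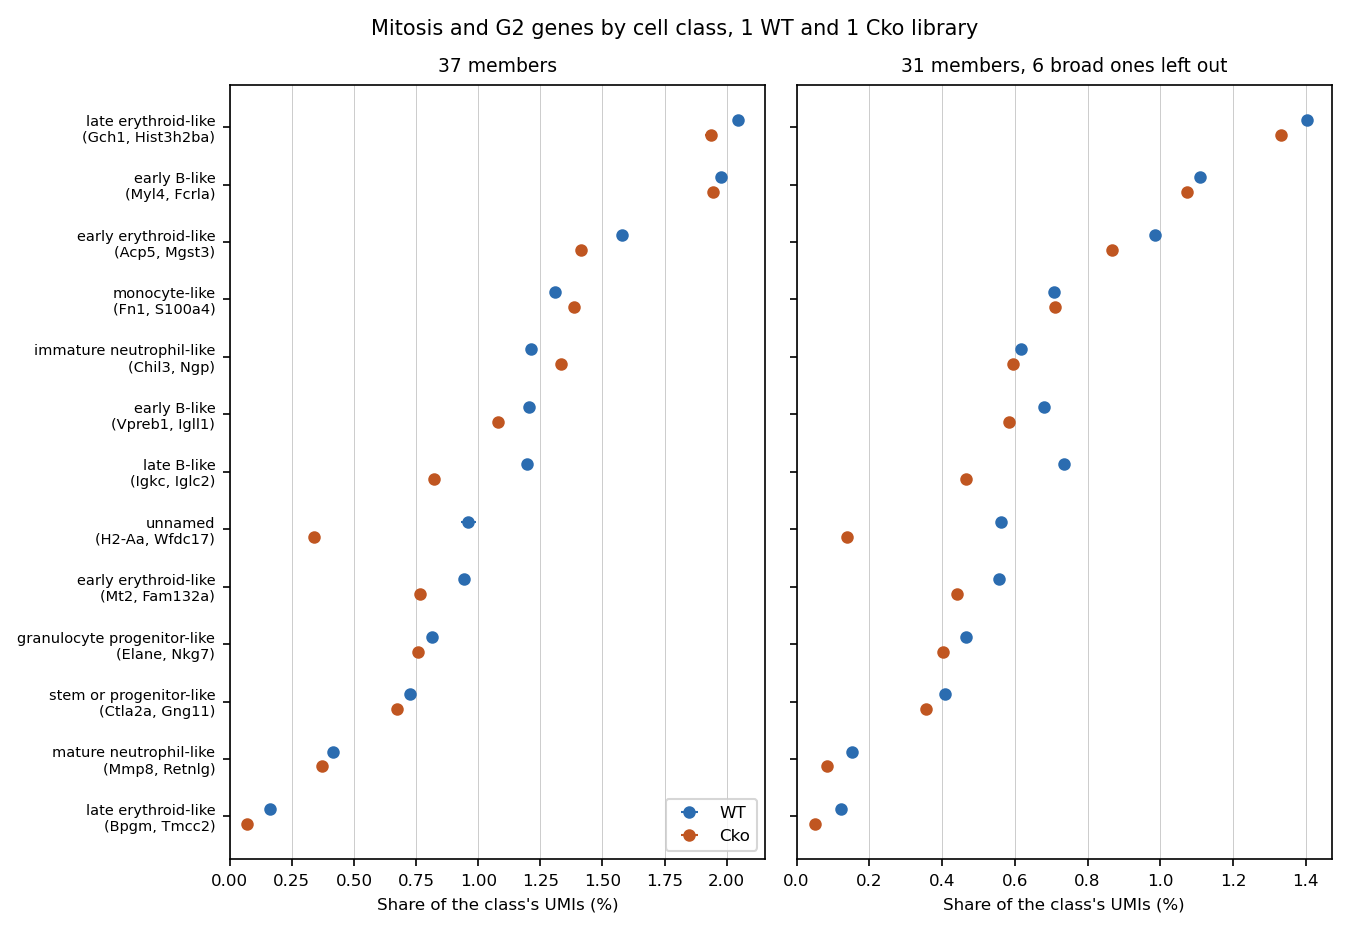
Points give the share of a class's UMIs from the members, WT in blue and Cko in orange, for the 13 classes with at least 50 cells in each library; the left panel sums 37 members with 95% Poisson intervals, mostly within the points, and the right panel leaves out the 6 broad ones. The *Gch1*-led late erythroid-like class is at 2.04% in the WT against 1.94% in the Cko, the *Myl4*-led early B-like class is beside it, the *Bpgm*-led one lowest at 0.162% and 0.0708%, and the unnamed class led by *H2-Aa* has the widest gap.

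Single members followed the same order of classes with exceptions. UMIs were counted at the 3′ end of the transcript, so a level in CPM, the gene's UMIs scaled to the same total in every class, does not grow with the length of the transcript. The total includes hemoglobin, which lowers the CPM of other genes in late erythroid-like classes. In the WT it was 65.5% of the UMIs in the *Gch1*-led, 83.3% in the *Bpgm*-led and 0.702% in the *Myl4*-led class. *Ube2c* reached 3147 CPM in the WT *Gch1*-led late erythroid-like class and 3083 in the Cko, against 1270 and 1369 in the *Myl4*-led early B-like class, the next highest. In the *Bpgm*-led late erythroid-like class, where *Cdk1*, the kinase of mitotic entry, was at 17.6 CPM in the WT, *Ube2c* still stood at 508 CPM, the level it had in the *Mt2*-led early erythroid-like class (507 CPM). *Hmgb2* followed there at 177 CPM, *Nusap1*, which bundles spindle microtubules, at 125 and *Tubb4b* at 111. In the Cko *Bpgm*-led class *Ube2c* was at 235 CPM, *Nusap1* at 42.2 and *Cdk1* at 1.76. *Ccnb1*, cyclin B1, was at 361 CPM in the WT *Gch1*-led late erythroid-like class and 253 in the WT *Myl4*-led early B-like class, and *Ccna2*, cyclin A2, at 464 and 364.

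By CPM of all UMIs, other members were highest in early B-like cells. This order depends on the hemoglobin in the total, and single genes were not ranked among the other UMIs. *Top2a*, the topoisomerase that untangles the chromosomes, was at 1006 CPM in the WT *Myl4*-led class and 934 in the Cko, against 610 and 520 in the *Gch1*-led late erythroid-like class. *Bub1b*, a kinase of the spindle checkpoint, was at 125 and 99.8 CPM in the *Myl4*-led class and at 41.4 and 32.8 in the *Gch1*-led class. *Cdc20*, the activator of the anaphase-promoting complex, was at 342 and 334 CPM against 186 and 209. *Aurkb*, *Kif11* and *Bub3* had their highest level in the *Myl4*-led class in both libraries as well. Taking each member's highest class by CPM of all UMIs, the WT had 13 in the *Myl4*-led and 24 in the *Gch1*-led class. The Cko had 15 and 19, with 3 in monocyte-like cells. *Bub1*, the checkpoint kinase listed in the WT alone, followed this pattern with 37.7 CPM in the *Myl4*-led class, 30.2 in the *Gch1*-led class and 0.662 in the *Bpgm*-led class, from 1289 UMIs over all WT cells.

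**Figure D3:**
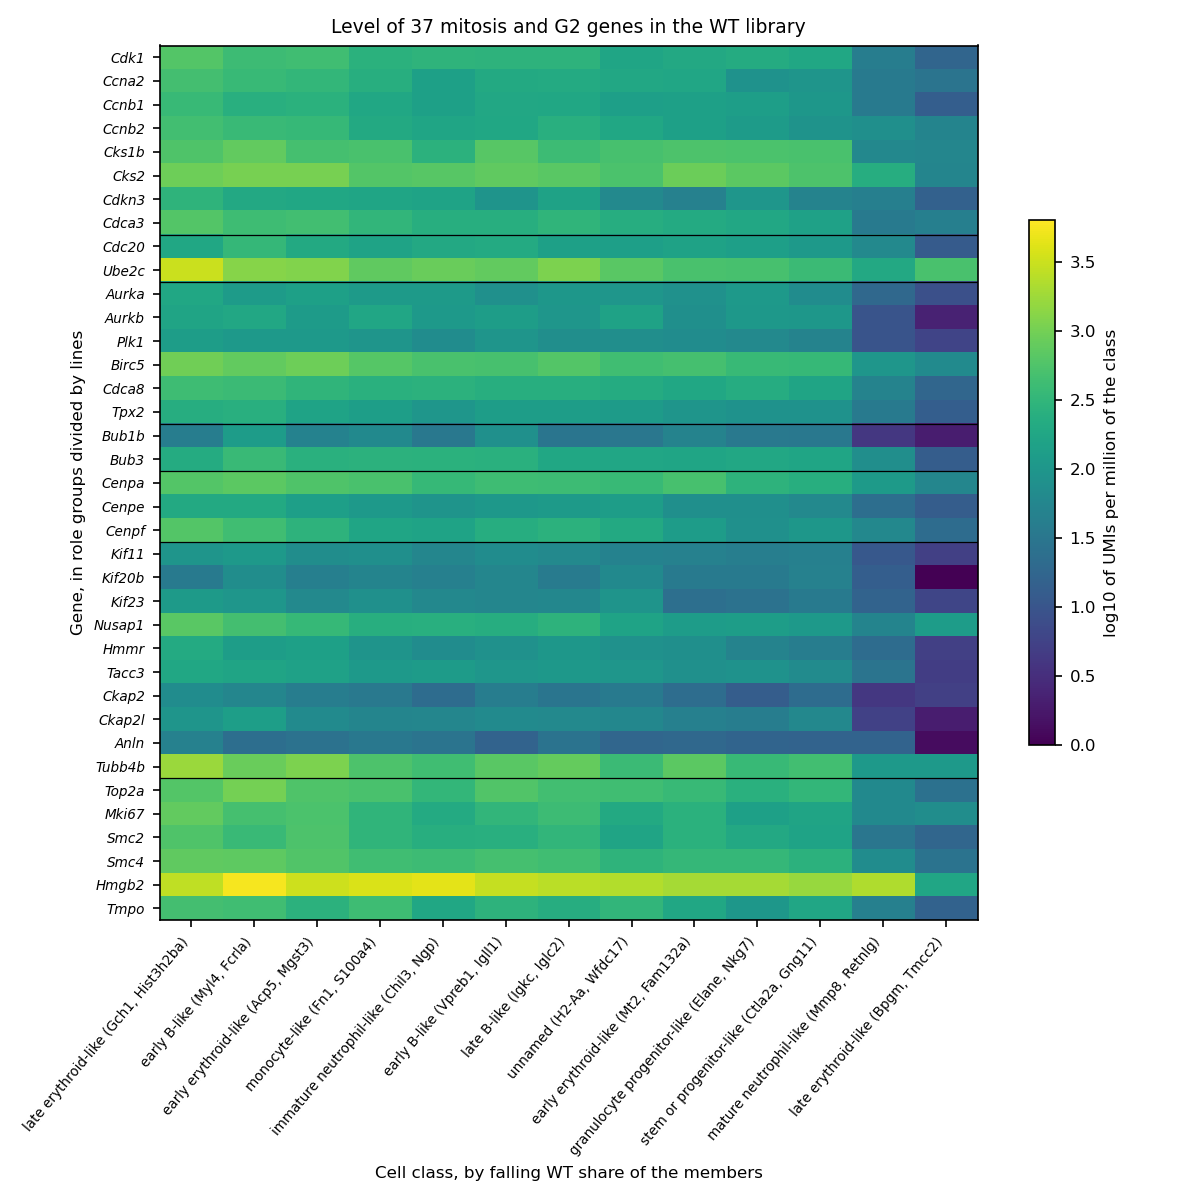
Each square gives the log10 of a gene's CPM in a WT class, for 37 genes in 7 role groups divided by lines and 13 classes ordered by their summed share. *Hmgb2* and *Ube2c* are the brightest rows, the 2 columns at the right are the mature neutrophil-like and *Bpgm*-led late erythroid-like classes, and *Ube2c* stays bright in the last column.

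Along erythroid maturation the share was read against the UMIs other than hemoglobin, because hemoglobin RNA fills these cells. In WT erythroid-like cells the members held 0.872% of the non-hemoglobin UMIs where hemoglobin was under 1% of the UMIs, 1.35% from 1% to 10%, 1.99% from 10% to 30% and 4.31% at 30% and over. The Cko values were 0.710%, 1.21%, 1.92% and 3.17%, in the same order. Per cell the path was different, with 155, 184, 165 and 88.9 member UMIs in the WT and 176, 223, 183 and 88.0 in the Cko. The share was thus highest in the bin with the fewest member UMIs per cell. The S phase list had 0.569%, 0.911%, 1.15% and 0.996% of the WT non-hemoglobin UMIs in these bins, lower in the last bin than in the one before it, whereas the member share was higher. The last bin mixes the *Gch1*-led and *Bpgm*-led classes, whose WT shares of the non-hemoglobin UMIs were 5.92% and 0.970%.

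In granulocytes the share was lowest where late neutrophil genes stood highest against early ones. The bins were tertiles of the ratio of late neutrophil genes (*Retnlg*, *Mmp8*, *Cxcr2*, *Il1b*, *Ccl6*, *Csf3r*) to early ones (*Camp*, *Ngp*, *Ltf*, *Cebpe*, *Chil3*, *Fcnb*). From the lowest to the highest tertile the members held 1.16%, 0.940% and 0.678% of the UMIs in the WT and 1.23%, 1.05% and 0.595% in the Cko. In the highest tertile 213 of the 277 WT cells and 166 of the 536 Cko cells came from the granulocyte progenitor-like class. Mature neutrophil-like cells were 56 and 343 of them. The tertile is therefore not made of the most mature cells alone, and in the WT most of its cells were progenitor-like. Among neutrophil-like cells alone, a choice made after the data were seen, the values were 1.18%, 1.03% and 0.678% in the WT and 1.24%, 1.19% and 0.596% in the Cko. The drop was steeper without the 6 broad members, from 0.603% to 0.304% in the WT and from 0.557% to 0.200% in the Cko. The Cko neutrophils lay further along, with 42.4% of its neutrophil-like cells in the highest tertile against 16.4% in the WT.

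B-lineage cells were binned by the surrogate light chain genes *Igll1*, *Vpreb1* and *Vpreb2*, which pro-B and early pre-B cells express. Cells in which they held at least 0.1% of the UMIs had 1.37% member UMIs in the WT against 1.25% in the Cko. Cells with some but under 0.1% had 1.80% and 1.88%, and cells with none had 1.53% and 1.58%. The bin with some surrogate light chain RNA was the highest in both libraries. The side on which the Cko lay depended on the hemoglobin in the cells, since of the non-hemoglobin UMIs the last bins held 1.96% and 1.93% in the WT and 1.90% and 1.76% in the Cko.

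**Figure D4:**
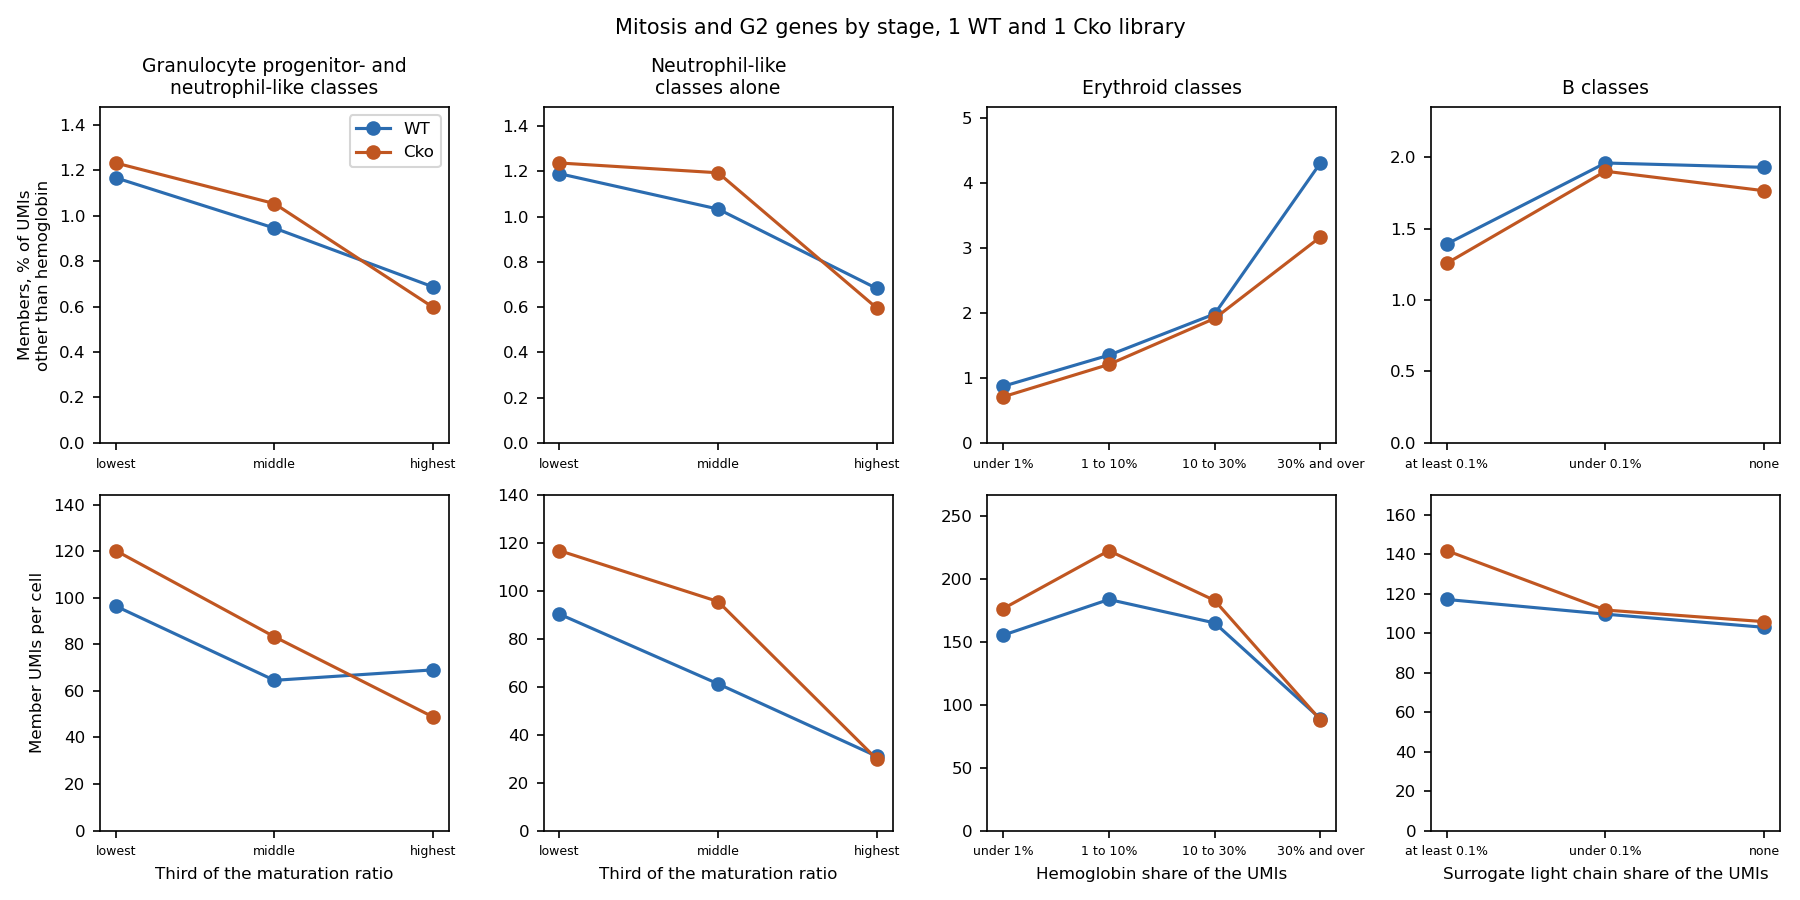
The upper row gives the members as a percentage of the UMIs other than hemoglobin and the lower row the member UMIs per cell, along granulocyte maturation with and without the progenitors, hemoglobin share and surrogate light chain share, WT in blue and Cko in orange. In erythroid-like cells the share climbs to 4.31% in the WT against 3.17% in the Cko while the UMIs per cell drop to 88.9 and 88.0.

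Member-rich cells were then counted, as cells with at least 10 member UMIs after each cell was thinned to 3000 UMIs, which left out 4 WT cells. This is a range along a score and not a cell type, and 275 WT and 379 Cko cells lay within 2 UMIs of the limit. Of all cells 83.7% were member-rich in the WT (interval 82.8 to 84.6) and 67.3% in the Cko (65.8 to 68.9). Without thinning the shares were 83.2% and 66.2%. The background was not low, at 29.8% of WT and 29.7% of Cko mature neutrophil-like cells, and only 10.1% and 5.90% of these passed when *Hmgb2* was left out. In the *Bpgm*-led late erythroid-like class 8.20% of WT and 1.80% of Cko cells were member-rich, in cells of 5124 and 6869 median UMIs.

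In the leading precursor classes nearly every cell passed. The shares were 99.8% in the WT against 99.3% in the Cko *Acp5*-led early erythroid-like class, 99.2% and 96.2% in the *Gch1*-led late erythroid-like class, and 99.8% and 96.0% in the *Myl4*-led early B-like class. Immature neutrophil-like cells passed in 97.2% and 98.6%. Stem or progenitor-like cells passed in 75.4% (70.5 to 79.8) of the WT and 69.7% (64.4 to 74.6) of the Cko cells, and granulocyte progenitor-like cells in 88.9% and 86.0%, where the intervals overlapped.

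Over all cells the members held 1.21% of the UMIs in the WT against 0.983% in the Cko, a Cko/WT ratio of 0.815 (0.812 to 0.819). This value mixes the makeup of the marrow with the level in each class. Erythroid-like cells were 3382 of the 6271 WT cells and 528 of the 3662 Cko cells, and mature neutrophil-like cells were 2.84% of the WT against 15.3% of the Cko cells. With each class weighted by the mean of its shares in the libraries, the ratio was 0.911, and over non-erythroid cells alone it was 0.884 (0.879 to 0.888). Without *Hmgb2* the ratio over all cells was 0.702. By role, the ratio over all cells was 0.608 for the spindle and cytokinesis genes, 0.696 for the anaphase-promoting complex, 0.698 for the centromere genes, 0.730 for the cyclin-dependent kinase group, 0.730 for the mitotic kinases and passenger proteins, 0.964 for the spindle checkpoint genes and 1.01 for the chromosome and nuclear envelope genes, which include *Hmgb2*.

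Within classes the summed members were lower in the Cko in 11 of 13. Another clustering turned this direction in the *Myl4*-led early B-like and mature neutrophil-like classes, as given below. Genes in general were also lower in many of these 11 classes. The median log2 ratio of all genes tested was above 0 only in the *Gch1*-led, *Bpgm*-led, mature neutrophil-like and late B-like ones. The median of the members was below that of all genes except in the *Myl4*-led class, at -0.05 for the members and -0.11 for all genes. A member was called past a Cko/WT ratio of 1.5 or under its inverse, among genes with at least 100 UMIs in the class over both libraries. Where a class has more WT than Cko cells, a member can pass this limit through its WT UMIs alone. Over the 13 classes 416 pairs of a member and a class could be called, and 76 were lower in the Cko (18.3%) and 0 higher. Over all genes 7.26% of 45052 such pairs were lower and 5.93% higher. Of those 76, 64 came from the 4 classes taken last below. In each of the other classes at most 8.11% of the members were called lower, near or below the share of all genes given for it. The classes share the same pair of mice and are not independent.

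In the *Acp5*-led early erythroid-like class the ratio of the sum was 0.895 (0.883 to 0.908). Hemoglobin was 17.6% of the WT against 22.0% of the Cko UMIs there. Of the other UMIs the members held 1.91% and 1.81%, a ratio of 0.946. Of all UMIs, 0 of 37 members were called higher beside 2.8% of the 4362 genes tested, and 2 were called lower beside 10.7%. These were *Bub1b*, at 48.6 CPM in the WT against 30.7 in the Cko, and *Kif23*, a kinesin of cytokinesis, at 60.9 and 39.3. The median log2 ratio was -0.28 for the members and -0.16 for all genes. In the *Mt2*-led early erythroid-like class the ratio was 0.815 (0.802 to 0.827), with 0 members called higher (6.48% of all genes) and 3 of 37 lower (7.87%). The 3 were *Aurka*, at 84.1 CPM in the WT against 49.7 in the Cko, *Plk1*, at 70.7 and 42.9, and *Ccna2*, at 178 and 115. *Aurka* and *Plk1* are kinases that ripen the centrosomes for the spindle. The S phase list had a lower ratio there, 0.677 (0.663 to 0.691), and 17 of its 40 genes were called lower.

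In the *Gch1*-led late erythroid-like class the ratio was 0.947 (0.934 to 0.961). Hemoglobin was 65.5% of the WT against 60.6% of the Cko UMIs there. Of the other UMIs the members held 5.92% and 4.91%, a ratio of 0.829. The calls and single gene ratios that follow are of all UMIs, and the lower hemoglobin share in the Cko raises them. No member was called higher beside 18.1% of all genes, and 3 of 37 were called lower beside 8.09%. The 3, *Ckap2*, *Anln* and *Ckap2l*, are spindle and cytokinesis genes with few UMIs, and *Ckap2* was at 70.8 CPM in the WT against 37.2 in the Cko. *Cdkn3*, a phosphatase of the cyclin-dependent kinases, was at 296 and 403 CPM, a ratio of 1.36 (1.23 to 1.51). The cyclins *Ccnb1* and *Ccnb2* had ratios of 1.18 and 1.19. The median log2 ratio was -0.12 for the members and 0.13 for all genes.

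In B-lineage precursors the ratio was 0.984 (0.972 to 0.997) for the *Myl4*-led and 0.893 (0.879 to 0.908) for the *Vpreb1*-led class. With each library clustered alone the *Myl4*-led ratio turned to 1.02. In the *Myl4*-led class 0 of 37 members were called higher (2.38% of all genes) and 1 lower (5.53%), which was *Ckap2l*, at 135 CPM in the WT against 81.0 in the Cko. In the *Vpreb1*-led class 0 of 36 were called higher (2% of all genes) and 2 lower (4.6%), *Ckap2* and *Ckap2l*. The S phase list had a ratio of 0.752 (0.734 to 0.771) in the *Myl4*-led class and 8 of its 38 tested genes called lower.

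In progenitors and myeloid precursors few members passed. Stem or progenitor-like cells had a ratio of 0.927 (0.913 to 0.942), with 0 of 37 members called higher (2.12% of all genes) and 1 lower (7.69%), again *Ckap2l*, at 58.5 and 33.4 CPM. Granulocyte progenitor-like cells had a ratio of 0.929 (0.915 to 0.944), with 0 higher (2.98%) and 0 lower (3.22%). Immature neutrophil-like cells had 1.10 (1.08 to 1.11), with 0 higher (3.64%) and 0 lower (2.21%), and monocyte-like cells 1.06 (1.04 to 1.08), with 0 higher (3.33%) and 0 lower (5.04%). These last classes were the only ones of the 13 with a ratio over 1. *Hmgb2* was at 4407 CPM in the WT against 5871 in the Cko immature neutrophil-like cells, and without the 6 broad members the ratio was 0.966 (0.95 to 0.983) there and 1.0 (0.981 to 1.03) in monocyte-like cells. The ratio in immature neutrophil-like cells therefore turned below 1 when *Hmgb2* and the other broad members were set aside. A coarser clustering into 12 clusters did not hold the same cells in these classes. Its immature neutrophil-like cluster gave 0.959, on 646 WT and 1185 Cko cells, with no mature neutrophil-like cluster beside it. Its monocyte-like cluster gave 0.763, on 391 and 644 cells, where the class described here held 287 and 276. In monocyte-like cells the ratio was 0.988 without *Hmgb2* and 0.997 with the cell cycle genes kept in the clustering.

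In the mature neutrophil-like class the ratio of the sum was 0.896 (0.860 to 0.934), and 0.554 (0.515 to 0.596) without the 6 broad members. With the cell cycle genes kept in the clustering the ratio turned to 1.06. Of 16 members with enough UMIs 0 were called higher (7.83% of all genes) and 8 lower (3.81%). *Mki67*, the proliferation marker Ki-67, was at 64.3 CPM in the WT against 26.4 in the Cko, and *Top2a* at 64.3 and 27.9, from 47 UMIs each in the WT. *Hmgb2* was at 2256 and 2597 CPM. Hemoglobin RNA was also lower in the Cko cells of this class, as given above, and the part of free RNA in the lower member level was not tested.

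The *Bpgm*-led late erythroid-like class had a ratio of 0.436 (0.404 to 0.470), and 0 of 12 members were called higher (32.7% of all genes) and 11 lower (11.5%). *Cks1b* was at 54.6 CPM in the WT against 12.3 in the Cko, and *Cenpa*, the histone of the centromere, at 55.0 and 15.8. *Cks2* was the exception, at 53.0 and 53.6 CPM. A WT cell of this class held 8.56 member UMIs and a Cko cell 4.83, under the 17 and 17.6 of mature neutrophil-like cells. The difference is not read as one between dividing cells.

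The class led by *H2-Aa* and *Wfdc17*, whose leading genes include antigen presentation genes and which stayed unnamed, had the widest gap. The members held 0.960% of the UMIs in 89 WT cells and 0.338% in 326 Cko cells, a ratio of 0.352 (0.338 to 0.366). The 23 members with enough UMIs were called lower, where 19.9% of all genes were, and the other 14 were too sparse to call, and 0 were called higher, where 13.5% were. *Top2a* was at 436 CPM in the WT against 81.8 in the Cko, *Ccna2* at 193 and 29.7, and *Ube2c* at 679 and 168, and the ratios nearest to 1 were those of *Bub3*, at 177 and 112, and *Hmgb2*, at 2300 and 1364. Member-rich cells were 37 of 89 in the WT (41.6%, 31.2 to 52.5) and 44 of 326 in the Cko (13.5%, 9.98 to 17.7). Within member-rich cells the share was 1.62% and 1.14%, a ratio of 0.703, and within the others 0.169% and 0.145%, a ratio of 0.858. The S phase list had a ratio of 0.302 here. The class held 1.42% of the WT against 8.90% of the Cko cells, and the median cell had 3954 and 4542 UMIs. It depended on the clustering. With the cell cycle genes kept in, the most similar cluster held 46 WT and 280 Cko cells, too few WT cells for a ratio. The coarser clustering into 12 clusters had none led by *H2-Aa*. Its monocyte-like cluster, of 391 WT and 644 Cko cells, had *Wfdc17* among its leading genes.

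The late B-like class led by *Igkc* and *Iglc2* had a ratio of 0.687 (0.667 to 0.708), or 0.368 with each library clustered alone, with 0 of 33 members called higher (13.4% of all genes) and 22 lower (13.7%). *Ccnb1* was at 183 CPM in the WT against 88.7 in the Cko, and *Bub3* at 181 and 168. With 238 WT and 69 Cko cells, sparse members such as *Hmmr* (222 UMIs in the WT, 20 in the Cko) passed the limit through the WT. The class held much erythroid RNA. Hemoglobin was 25.9% of its UMIs in the WT against 17.5% in the Cko, doublet calls covered 24.8% and 18.8% of its cells, and only 39 of 238 WT cells and 45 of 69 Cko cells had under 1% hemoglobin. In these cells the members held 0.817% and 0.547% of the UMIs, a ratio of 0.669 (0.628 to 0.713), on fewer than 50 cells in each library. The share of member-rich cells in the class was 79.0% (73.3 to 84.0) and 42.0% (30.2 to 54.5).

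**Figure D5:**
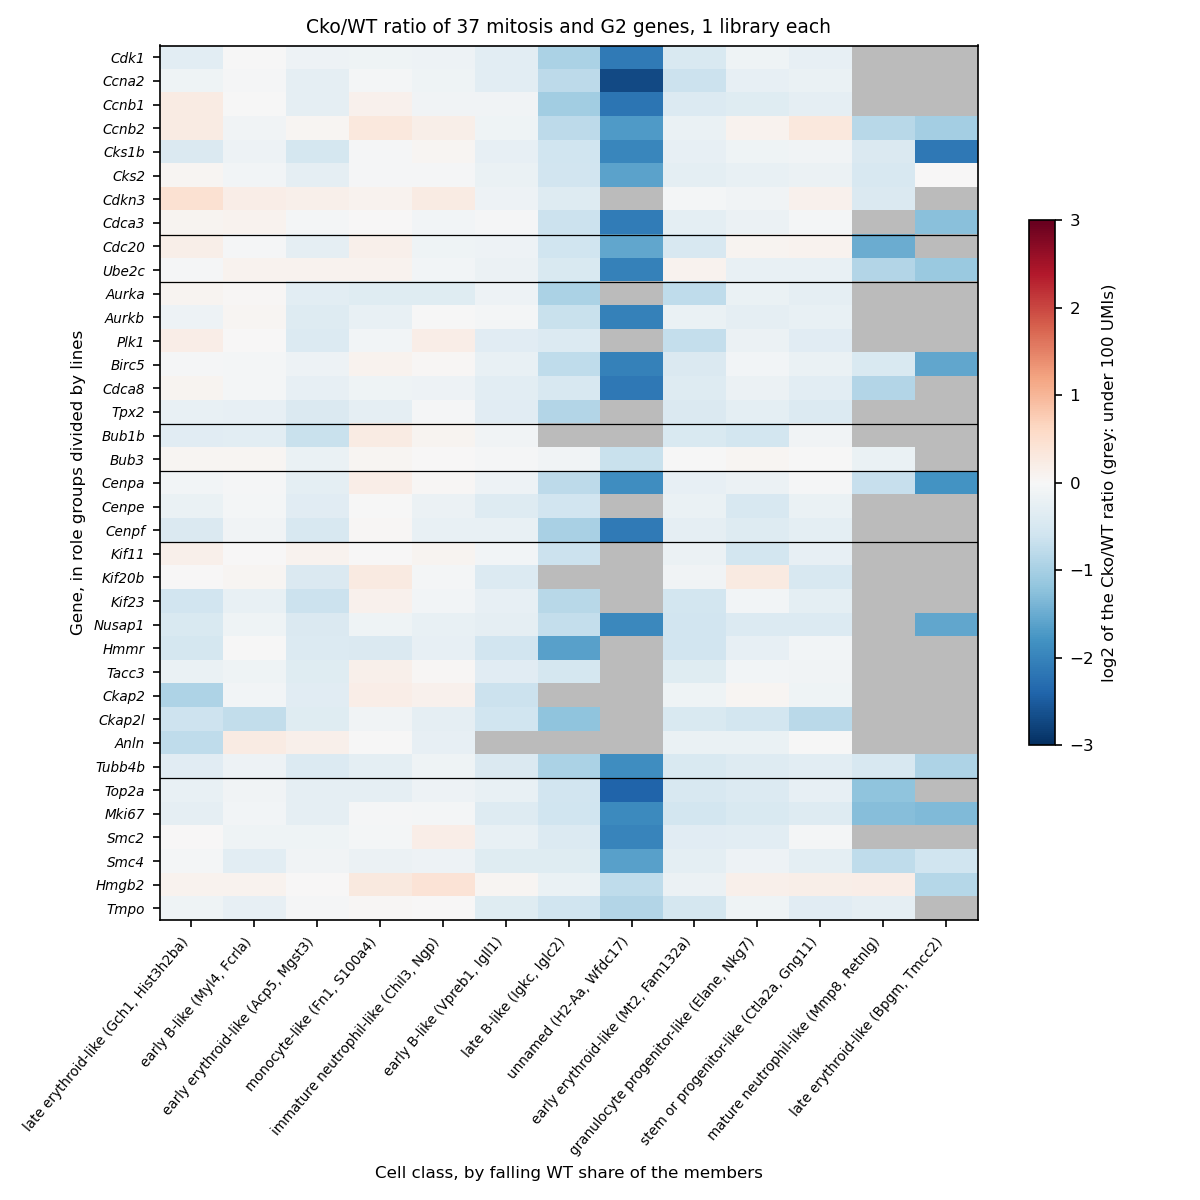
Each square gives the log2 of the Cko/WT ratio of a gene in a class, blue for lower and red for higher in the Cko, grey for pairs under 100 UMIs; genes stand in role groups and classes in the order of their WT share. In the *H2-Aa*-led column the 23 squares that are not grey are blue, *Hmgb2* is red in 9 of 13 columns, and most other squares are pale.

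Across classes some members kept 1 direction. Of the 33 members with at least 100 UMIs in 10 or more classes, 11 were lower in the Cko in every class in which they could be tested (33.3%), beside 5.75% of the 2190 genes tested in the same way, and 0 were higher in every class, beside 4.47%. The 11 were *Cdk1*, *Ccna2*, *Tpx2*, *Cenpe*, *Nusap1*, *Hmmr*, *Ckap2l*, *Tubb4b*, *Top2a*, *Smc4* and *Mki67*. *Tubb4b* was at 1670 CPM in the WT against 1327 in the Cko *Gch1*-led late erythroid-like class, and at 663 and 492 in the *Vpreb1*-led early B-like class. *Hmgb2* was the member most often higher in the Cko, in 9 of 13 classes. *Ccnb2* and *Cdkn3* were higher in 6, and *Bub3* and *Kif11*, a spindle motor, in 5. These directions rest on 1 pair of mice.

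The other cycle genes were summed in the same way. Of 52 further mitosis genes listed in both libraries, the summed ratio ran from 0.308 in the *H2-Aa*-led class to 1.01 in immature neutrophil-like cells. Of 40 S phase genes the ratio ran from 0.302 in that class to 1.03 in immature neutrophil-like cells. The 7 genes of the quiescence list, which are held to rise in resting cells, had ratios from 0.693 in granulocyte progenitor-like cells to 1.66 in the *Mt2*-led early erythroid-like class, on a share of 0.0106% of the WT against 0.0175% of the Cko UMIs there. That sum goes against most of the list, since of 5 genes tested in the *Mt2*-led class 3 were called lower and 1 higher, with a median log2 ratio of -0.69. Across all cells *Cdkn2d* and *Cdkn2c* of this list rose with the summed member share, with mean correlations of 0.559 and 0.51 over the libraries. No other gene of the list was among the most similar ones.

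Across cells of a class, after thinning, *Ube2c* followed the sum of the other members most closely, with a median Pearson correlation of 0.624 over the 13 classes and both libraries, ahead of *Hmgb2* (0.584), *Tubb4b* (0.523), *Cks2* (0.513) and *Birc5* (0.509). *Anln* (0.108) and *Ckap2* (0.166) were lowest and have the fewest UMIs, and weak values in such sparse counts are no finding. Outside the members, the genes whose log-normalized level was most like the summed share across all 6271 WT and 3662 Cko cells were *H2afx* (mean of the libraries' correlations 0.730), *Ube2s* (0.727), *Arl6ip1* (0.699), *Tuba1c* (0.685), *Tuba1b* (0.616), *Prc1* (0.615), *Tubb5* (0.612), *1190002F15Rik* (0.606), *Spc25* (0.569) and *Kif22* (0.566). Of these 10, 7 were in the list of other mitosis genes. The cells share a library and its depth, and these values are a description.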

How the data were processed

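Single BMCs were captured with the Chromium 3′ v2 kit, and the authors deposited UMI counts per gene and cell, made with Cell Ranger on GRCm38 per the submitters' processing notes (the version is not given in the sources used here). A total row and a sum column were dropped, 2 rows of 1 gene were added together, and barcodes with under 200 genes were left out. Cells were clustered in Seurat 5.3.0 (R 4.3.3; 2000 variable genes, 20 components) without the cell cycle genes, and doublets called with scanpy 1.11.5 were kept. Clusters were named from listed markers by a rule set after the clusters were seen. Members, role groups and lists were chosen with earlier results of these data known. Genes named are members by role group, those called, the 10 non-members most like the sum, and *Cdkn2d* and *Cdkn2c* of the quiescence list. Ratios are Cko over WT shares, called at 1.5-fold with at least 100 UMIs. The ratio script was checked on simulated data. Alternatives changed the denominator, members, clustering, depth, doublets and thresholds.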

Additional observations from a re-analysis of the deposited data

Results flagged for a closer look

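The members' Cko/WT ratio was 1.10 in immature and 0.896 in mature neutrophil-like cells, on opposite sides of 1, and the difference was not tested. With the cell cycle genes kept in the clustering the mature neutrophil-like ratio turned to 1.06. A coarser clustering into 12 clusters gave 0.959 in its only neutrophil-like cluster, of 646 WT and 1185 Cko cells. No separate mature neutrophil-like cluster was left there, so 0.959 is not a value of immature cells alone. *Bub1* gave 1289 UMIs in the WT and was not listed in the Cko, so it entered no comparison.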

How the results depend on the processing

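No paired analysis was possible because the groups share only 1 replicate number, with 1 library each. Counting error is the only error measured, and 1 mouse per genotype limits every ratio. The cause of the following shifts was not tested. In the *Bpgm*-led late erythroid-like class the ratio was 0.361 of non-hemoglobin UMIs and 0.318 with at least 500 genes per barcode. In mature neutrophil-like cells it was 0.591 without *Hmgb2*, 0.554 without the 6 broad members, 1.06 with cell cycle genes kept in the clustering and 0.668 as the median of genes. In the *H2-Aa*-led class these were 0.276 without *Hmgb2*, 0.249 without the broad members, 0.335 after thinning and 0.256 as the median. In the late B-like class they were 0.638, 0.634, 0.530 and 0.645 in that order, with 0.617 of non-hemoglobin UMIs, 0.647 without doublets and 0.368 with each library clustered alone, where 7 of 10 classes were lower in the Cko. Over all cells the ratio was 0.702 without *Hmgb2*, 0.703 without the broad members (chosen after seeing the data) and 0.725 of non-hemoglobin UMIs. It was 0.884 in non-erythroid cells and 0.911 with each class weighted by the mean of its shares in the libraries. Members called lower numbered 40 of 350 pairs with at least 300 UMIs (11.4%, beside 5.19% of all genes) and 34 of 416 at 2-fold (8.17%, beside 2.02%). Member-rich cells were 91.7% of the WT and 85.0% of the Cko at a limit of 5, 73.2% and 51.4% at 20, and 78.5% and 54.0% without *Hmgb2*. Among neutrophil-like cells alone, chosen after seeing the data, the lowest and middle tertiles had ratios of 1.05 and 1.16. Alternatives that left a class under 50 cells in a library gave no value.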
